A study of Mus musculus with 107 samples.

Results

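The genes described here encode the subunits of 4 inner mitochondrial membrane machines in mouse liver: complex I (NADH dehydrogenase), complex III (cytochrome bc1), complex IV (cytochrome c oxidase) and complex V (ATP synthase). Members were chosen by name: array probes annotated with a single gene symbol starting with Nduf, Uqcr, Atp5, or Cox4 to Cox8, and with a usable value in at least 90% of the arrays. Of 23536 probes on the array, 81 matched by symbol and 79 were kept, which measure 78 of the 12315 genes represented among all kept probes. By role, 29 genes encode complex I subunits, 7 complex III, 11 complex IV and 16 complex V, which makes 63 structural subunits. The other members are 7 complex I assembly factors (Ndufaf genes), 5 tissue-restricted complex IV isoforms, the supercomplex factor Cox7a2l and 2 pseudogenes. Uqcrq of complex III and Ndufb4 of complex I matched by name but were measured on 86 of 104 arrays (82.7%) and were left out. The members nearest to the limit on the kept side were Cox8c with 98 arrays (94.2%), and Cox6a2 and Ndufs1 with 102 each (98.1%).

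Electrons from NADH enter the respiratory chain at complex I, pass through ubiquinone to complex III and through cytochrome c to complex IV, where oxygen is reduced. Complexes I, III and IV pump protons out of the matrix, and complex V lets them flow back to make ATP. In hepatocytes the chain oxidises the NADH and reduced flavins from fatty acid oxidation and the tricarboxylic acid cycle, and supplies ATP for gluconeogenesis, urea synthesis and protein export. All members measured here are nuclear genes, so their products are made in the cytosol and imported.

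Each sample was the liver of a single female mouse from an F2 intercross of C57BL/6J and DBA/2J, an atherogenic diet being common to all of them. A 2-colour array set the total RNA of each liver against a pool of equal RNA portions from the mice, which the labels number 111. The animals form 1 group with no control diet and no parental strain, so every value below is a difference between an individual mouse and the average of its cohort, and the comparisons are between genes and between mice. Of 107 arrays, those of mice 24, 55 and 91 held only zeros or missing values, which left 104 mice. No liver was hybridised more than once, so technical error adds to the spread between mice, and precision rests on how many arrays there are. Genotypes of single mice were not analysed here.

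The deposited values were taken as log10 of mouse over pool and are given here as log2. They stop at exactly 2 and -2, the base of the logarithm is not stated, and the direction is read from the order of the names in the sample titles. The direction is not settled. With the sign of all arrays turned, every median, minimum and maximum below changes sign, and ranges and correlations do not. Whether all arrays run the same way was not tested either: 18 of 5356 pairs of arrays correlated below -0.3 over all probes, with -0.48 as the lowest, and turning single arrays would change ranges and correlations too. In 18 arrays, called limit-rich here, between 946 and 1828 values sat at the limits, against at most 496 in each of the other 86, and these arrays are given apart where they matter. A ratio to the pool is not a level, so no gene's level is set against another's. In whole liver, fewer cells of a type and less RNA per cell cannot be told apart.

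The structural subunits varied moderately between livers, about as much as other genes did. The median subunit had a range of 1.93-fold between the 5th and the 95th percentile of mice, and the median over all genes was 1.94-fold. Of the 78 member genes, 34 (43.6%) had a range above 2-fold, against 46.9% of all genes, so the members did not stand out by their spread. The 4 complexes were alike: the median range was 1.95-fold in complex I, 1.91-fold in complex III, 1.97-fold in complex IV and 1.93-fold in complex V.

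In complex I, the widest ranges belonged to Ndufb9 and Ndufb5, accessory subunits of the membrane arm. Ndufb9 lay between -1.49 and 1.13 with a median of -0.07 (log2 over pool), a 5th to 95th percentile range of 3.09-fold. Ndufb5 lay between -1.90 and 0.86 with a median of -0.02, a range of 2.88-fold. The lowest Ndufb5 value came from mouse 49, whereas mouse 78 was lowest for Ndufb9. The narrowest were Ndufa3 (1.56-fold) and Ndufb2 (1.57-fold), which are also membrane-arm accessory subunits. The Ndufb2 range is that of the mean of 2 probes that differ, with 2.03-fold and 1.38-fold on their own.

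In complex III, the widest ranges were those of Uqcrfs1, the Rieske iron-sulphur protein that hands electrons to cytochrome c1, and of Uqcrh, the hinge protein. Uqcrfs1 ran from -1.06 through a median of 0.10 to 0.90 log2, a 2.42-fold range. Uqcrh ran from -0.74 through -0.0036 to 0.86 log2, a 2.11-fold range. The core protein Uqcrc1 (1.65-fold) and the small subunit Uqcr11 (1.85-fold) were the narrowest of the 7.

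In complex IV, Cox6b1, a subunit on the intermembrane space side, ran from -0.70 through 0.02 to 1.53 log2, a 2.45-fold range. Cox7b, a small membrane-spanning subunit, ran from -0.58 through 0.05 to 1.26 log2, a 2.17-fold range. Cox8a (1.64-fold) and Cox5b (1.82-fold), also nuclear-encoded subunits around the catalytic core, varied least. In complex V, Atp5mpl, a small proteolipid of the membrane part, stood apart with 12.1-fold and is described separately below. The next widest was Atp5e, the epsilon subunit of the central stalk, which ran from -0.69 through 0.02 to 1.14 log2 (2.45-fold). Atp5g2, which encodes the membrane ring subunit c (1.72-fold), and Atp5d, the delta subunit of the central stalk (1.73-fold), were the narrowest of the 16.

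**Figure D1:**
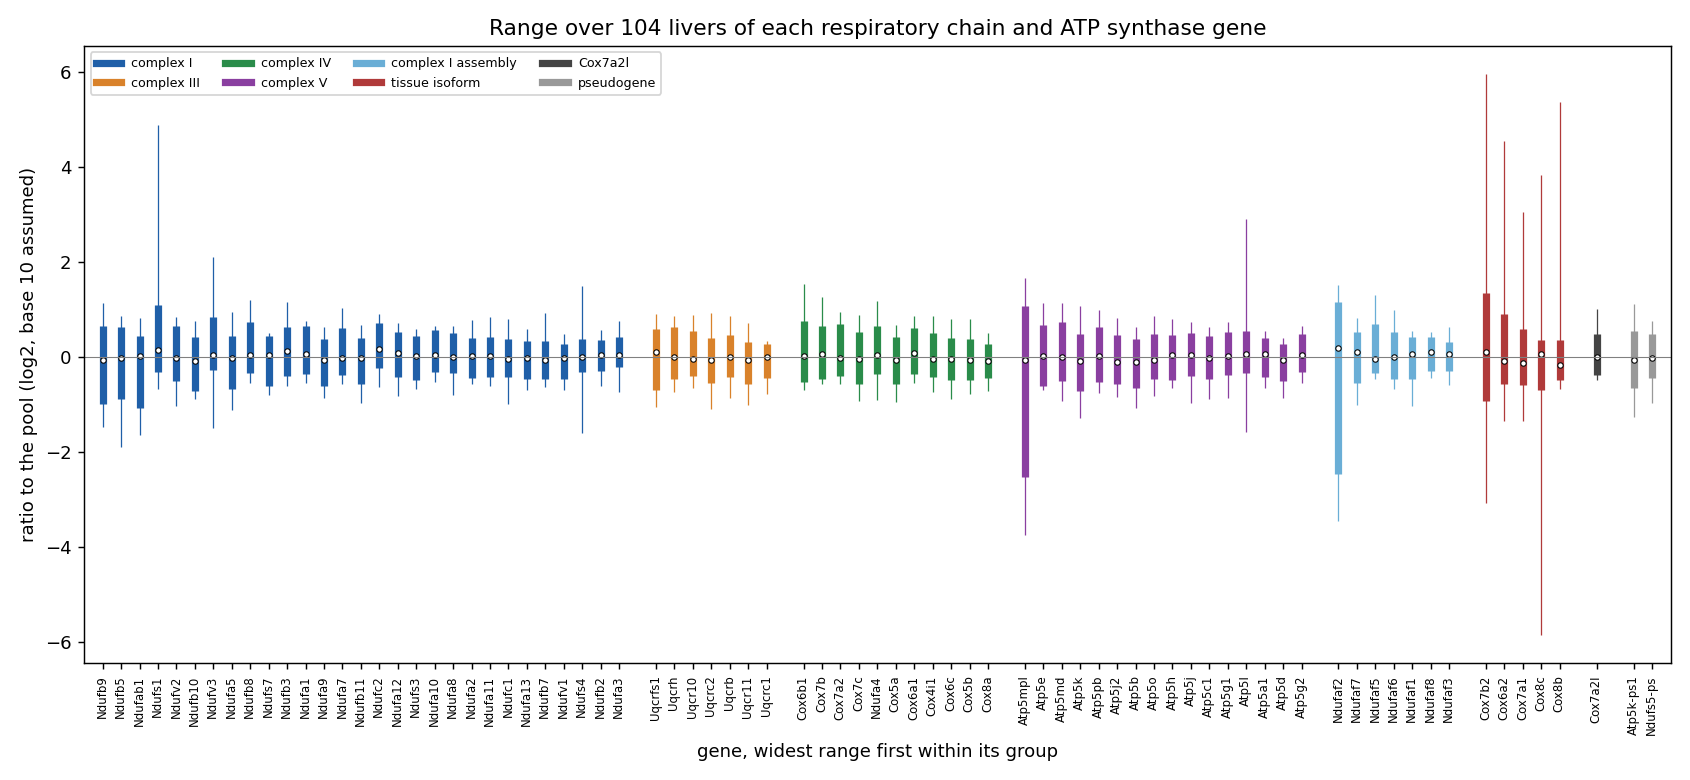
Log2 ratio to the pool for each member gene across 104 livers, grouped by complex; the thick bar spans the 5th to 95th percentile, the thin line the lowest to the highest mouse and the white point is the median. Most bars span about 2-fold, and Ndufaf2 (12.4-fold) and Atp5mpl (12.1-fold) are the wide exceptions.

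What the subunits shared was not a wide spread but a common order of the mice. In mouse 44, 61 of the 63 structural genes lay above the pool, with a median log2 ratio of 0.64. In mouse 130, 60 of the 63 lay below it, with a median of -0.55. At least 90% of the structural genes were above the pool in 12 mice and below it in 15. After mouse 44, the mean over structural genes was highest in mice 113, 43, 18 and 4, and after mouse 130 it was lowest in mice 26, 138, 78 and 127. None of these 10 arrays was limit-rich.

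The 4 complexes ordered the mice in nearly the same way. With every gene scaled to an SD of 1 and averaged within a complex, Pearson's r over the 104 mice was 0.97 between complexes I and V (Spearman's rho 0.97), 0.96 between III and V (rho 0.96), and 0.95 both between I and III (rho 0.94) and between I and IV (rho 0.94). It was 0.94 between IV and V (rho 0.93), and the lowest was 0.90 between III and IV (rho 0.88). These correlations are descriptions, since all genes of a mouse were read from 1 array. For complexes III and IV, r was 0.90 in the 86 other arrays and 0.94 in the 18 limit-rich ones, and 0.89 without the 2 mice farthest from the median of complex III. The mean over all structural genes had r = -0.072 with the spread of all values on an array (rho 0.049) and r = 0.034 with the number of values at the limits (rho 0.20). Within the 86 other and the 18 limit-rich arrays, r was -0.073 and -0.27 with the spread, and 0.25 and 0.27 with the number at the limits.

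**Figure D2:**
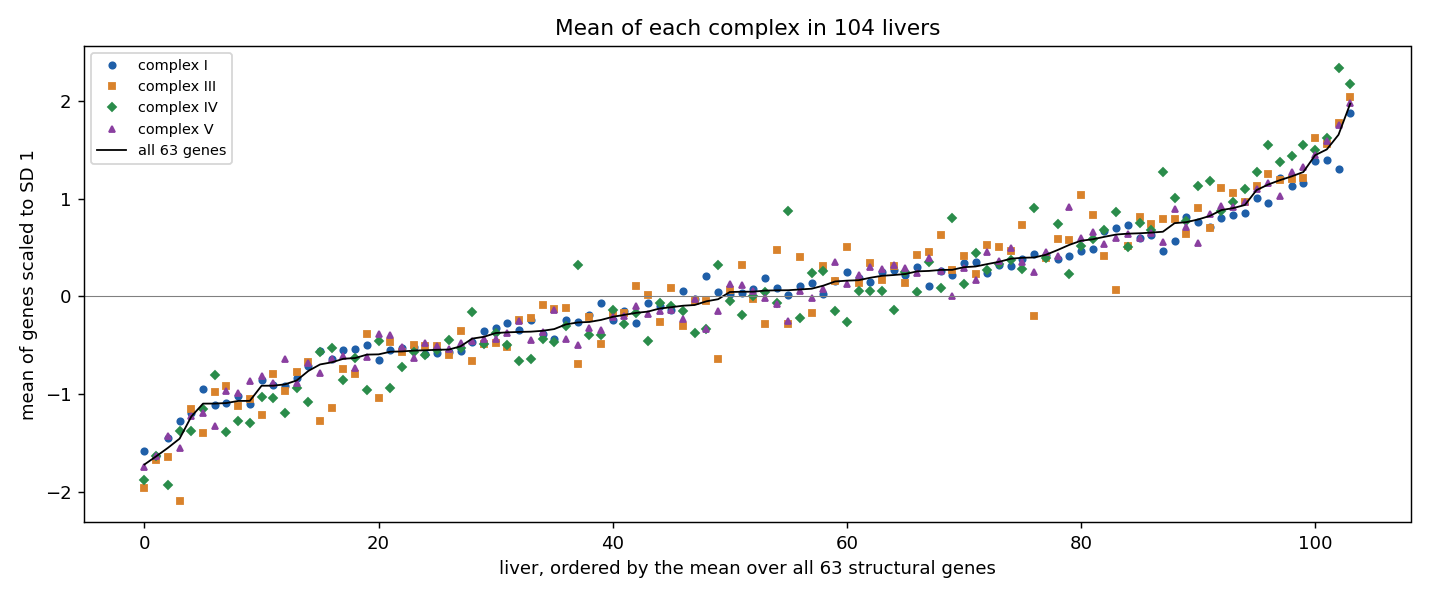
Mean of the structural genes of each complex, every gene scaled to an SD of 1, in 104 livers ordered by the mean over the 63 genes. The 4 complexes run together from mouse 130 at the low end to mouse 44 at the high end.

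Gene by gene, pairs of subunits were correlated well above pairs of genes at large, and pooled over the complexes not more within a complex than between complexes. Of 602 pairs in the same complex, 61.0% had r of at least 0.5, and of 1351 pairs from different complexes 66.7% did, against 2.66% of all gene pairs, whose mean r was 0.0031. The mean r was 0.499 ± 0.026 (jackknife SE over 104 mice) for pairs of the same complex and 0.547 ± 0.027 for pairs of different complexes. The difference was -0.049 ± 0.0039 (95% interval -0.056 to -0.041). It had the same sign in the 86 other arrays (-0.047) and in the limit-rich ones (-0.070).

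That pooled value rests largely on complex I, which gives 406 of the 602 same-complex pairs, and the complexes differed in how tightly their own genes ran together. Mean r within complex IV was 0.719 ± 0.029, within complex III 0.613 ± 0.039, within complex V 0.518 ± 0.025 and within complex I 0.457 ± 0.028 (jackknife SE). Between complexes, mean r was 0.534 for I with III, 0.566 for I with IV, 0.498 for I with V, 0.633 for III with IV, 0.582 for III with V and 0.599 for IV with V. The mean within complex IV was above each of its 3 means with other complexes, and that within complex I was below each of its 3. In complex IV, 94.5% of the 55 pairs reached r of 0.5, and in complex I 54.7% of the 406 pairs did. The lower means of complexes I and V came with 6 kept genes that hardly followed the rest, described below. Without these 6, chosen after their values were seen, mean r was 0.598 in complex I and 0.669 in complex V. The difference between same and different complexes was then -0.016. Uqcrq of complex III and Ndufb4 of complex I, left out for too few arrays, also hardly followed the structural mean. Their r was -0.061 and 0.18, over 86 arrays each. With probes measured on at least 50% of arrays, mean r was 0.459 in complex III, below the 0.518 of complex V. It was 0.434 in complex I and 0.719 in complex IV. The place of complex III above complex V thus depends on the minimum number of arrays. With the first principal component of all probes removed, which held 14.8% of the variance and had r of 0.75 in size with the structural mean, mean r was 0.30 in complex I, 0.347 in complex III, 0.621 in complex IV and 0.364 in complex V. In the limit-rich arrays alone, mean r was 0.694 within complex III and 0.662 within complex IV, the reverse of their order over all arrays.

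Each subunit's closest partner was usually in another complex. For 13 of the 63 genes (20.6%) the structural gene with the highest r belonged to the same complex. These were 8 of 29 genes in complex I (27.6%), where 45.2% of the 62 possible partners are in the same complex, and 0 of 7 in complex III, where 9.68% are. In complex IV they were 4 of 11 (36.4%), where 16.1% are, and in complex V 1 of 16 (6.25%), where 24.2% are. The closest pairs were Ndufb2 of complex I with Atp5j, coupling factor 6 of the ATP synthase stalk (r = 0.93), and Cox7c with Cox7a2, both small complex IV subunits (r = 0.92). Next were Cox5b with Cox7c (r = 0.92) and Uqcr11 of complex III with Atp5j2, the f subunit of complex V (r = 0.92).

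The subunits ran closer together than the genes of other large complexes did. Mean r was 0.297 ± 0.022 among 67 mitochondrial ribosomal protein genes, 0.361 ± 0.036 among 60 cytosolic ribosomal protein genes and 0.294 ± 0.026 among 37 proteasome genes. The 3 complex II subunits measured, which feed electrons from succinate into the chain and are no members, had a mean r of 0.623 ± 0.047 with each other. Their mean followed the structural mean closely (r = 0.93, rho 0.93). The mean of the mitochondrial ribosomal proteins did so too (r = 0.90, rho 0.87), that of the proteasome less (r = 0.64, rho 0.61), and that of the cytosolic ribosomal proteins had r = 0.080 (rho 0.23).

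**Figure D3:**
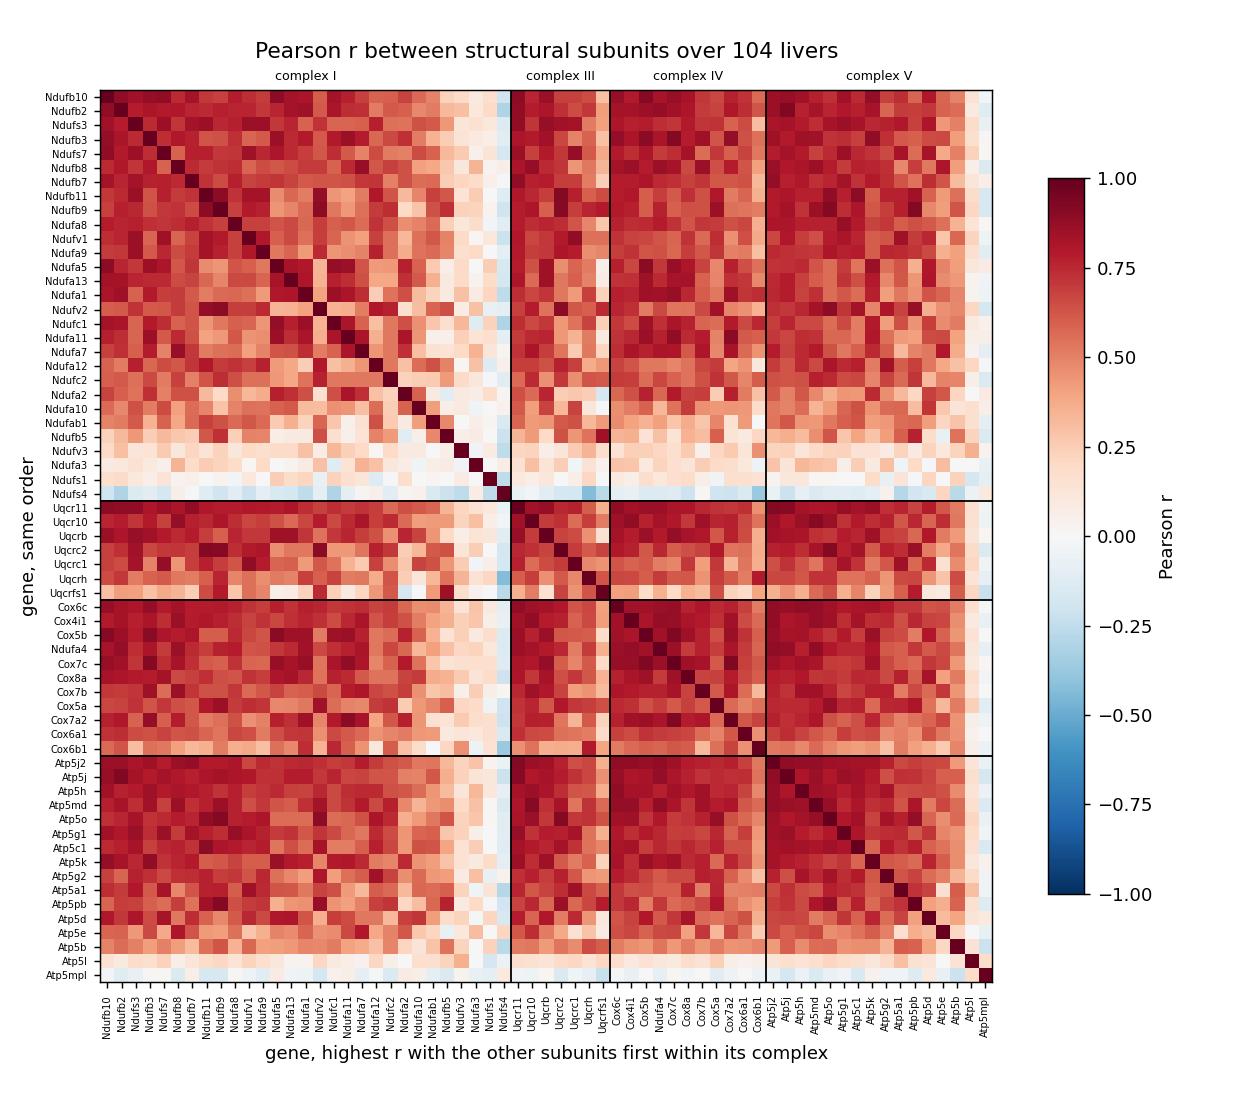
Pearson's r over 104 livers for every pair of the 63 structural genes, ordered by complex and, within a complex, by r with the other structural genes. Blocks of high r cross the borders of the complexes, and 6 genes, 4 in complex I and 2 in complex V, appear as pale or reversed stripes.

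Of the 63 structural genes, 49 had r of at least 0.7 with the mean of the others. The highest r were those of Uqcr11 (0.94 ± 0.010, jackknife SE), Atp5j2 (0.93 ± 0.014), the complex IV subunit Cox6c (0.93 ± 0.016) and Atp5j (0.92 ± 0.012). Others named for a high r with their own complex were Ndufb10 (0.91) and Ndufb2 (0.91), Atp5o, which joins the stator stalk to the catalytic head (0.90), the core protein Uqcrc2 (0.83), Cox5b (0.89) and Cox7c (0.88). Within complex IV, Cox6b1 (0.56) and Cox6a1 (0.73) had the lowest r with their own complex, and within complex III Uqcrfs1 (0.47) and Uqcrh (0.71) did, these 4 values again being r with all other structural genes.

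Promoter sequences were available in RefSeq (build GRCm38.p6) for 54 of the 63 structural genes, with 59 promoters. They cover 250 bases before to 50 after the annotated start, and 4 motifs were searched on both strands, a place that matched on both counting once: GCGCATGCG of nuclear respiratory factor 1 (NRF1), CCGGAAGT of ETS factors such as GABP, AAGATGGCG of YY1, and TCAAGGTCA of the oestrogen-related receptors. The NRF1 letters stood in 13.6% of the member promoters and 1.75% of all 32851 promoters, and the YY1 letters in 10.2% against 1.40%. The ETS letters stood in 8.47% against 3.89%, and the oestrogen-related receptor letters in 0 of the 59 against 0.423%. The 18 genes with any of the 4 had a median r of 0.81 with the other structural genes, and the 36 with none had 0.80. Shown are the promoters of the gene in each complex that had the highest r among those with a match, from 5′ to 3′ on the gene's strand, with the matches in capitals. Ndufs3, a core subunit of the complex I matrix arm, lies at chr2:90904672-90904971 (minus strand) with the ETS letters. Uqcr11 lies at chr10:80406772-80407071 (minus strand) with ETS and NRF1 letters, Cox8a at chr19:7217567-7217866 (minus strand) with the ETS letters at 2 places, and Atp5j2 at chr5:145191492-145191791 (minus strand) with the YY1 letters 23 bases after the start.
Ndufs3: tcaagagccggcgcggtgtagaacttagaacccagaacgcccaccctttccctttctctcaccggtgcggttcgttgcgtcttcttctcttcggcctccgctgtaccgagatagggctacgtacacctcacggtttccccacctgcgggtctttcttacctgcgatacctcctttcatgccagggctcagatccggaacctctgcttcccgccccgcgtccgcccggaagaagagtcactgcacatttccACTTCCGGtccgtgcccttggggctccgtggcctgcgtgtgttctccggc
Uqcr11: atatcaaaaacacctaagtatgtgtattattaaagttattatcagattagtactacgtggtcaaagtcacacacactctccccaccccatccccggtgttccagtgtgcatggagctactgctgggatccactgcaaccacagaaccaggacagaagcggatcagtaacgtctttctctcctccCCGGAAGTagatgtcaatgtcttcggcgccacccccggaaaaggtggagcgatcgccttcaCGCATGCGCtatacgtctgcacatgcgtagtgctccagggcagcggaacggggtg
Cox8a: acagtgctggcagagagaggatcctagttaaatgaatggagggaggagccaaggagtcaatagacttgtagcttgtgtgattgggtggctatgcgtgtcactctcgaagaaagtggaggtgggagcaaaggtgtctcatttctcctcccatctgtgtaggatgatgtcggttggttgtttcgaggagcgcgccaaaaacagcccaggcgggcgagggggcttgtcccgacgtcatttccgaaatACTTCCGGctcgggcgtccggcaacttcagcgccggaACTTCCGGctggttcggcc
Atp5j2: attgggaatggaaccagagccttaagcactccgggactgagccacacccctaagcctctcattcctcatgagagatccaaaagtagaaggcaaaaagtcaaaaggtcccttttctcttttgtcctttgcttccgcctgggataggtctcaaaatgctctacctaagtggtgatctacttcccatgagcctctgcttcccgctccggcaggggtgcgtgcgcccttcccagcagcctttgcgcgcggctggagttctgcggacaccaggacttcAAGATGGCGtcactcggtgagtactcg

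The 6 genes with r under 0.3 were Ndufs4 (-0.17 ± 0.083), Atp5mpl (-0.065 ± 0.096), Ndufs1 (0.095 ± 0.10), Atp5l (0.18 ± 0.062), Ndufa3 (0.18 ± 0.14) and Ndufv3 (0.23 ± 0.087). The next lowest was Ndufb5 at 0.42. Ndufs4, an accessory subunit of the matrix arm whose loss in mice gives a Leigh-like encephalopathy, ran from -1.61 through -0.0086 to 1.49 log2 and had the most negative pairs, with Uqcrh (r = -0.43) and Cox6b1 (r = -0.37). Ndufs1, the large iron-sulphur subunit of the electron input module, ran from -0.68 through 0.15 to 4.87 log2. Its highest value came from mouse 101, a limit-rich array, and in the 85 other arrays with a value it did not exceed 1.32.

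Atp5l, the g subunit that helps ATP synthase dimerise, had extremes in the limit-rich arrays as well. It ran from -1.59 to 2.90 log2 in the 18 limit-rich arrays, and between -0.34 and 0.59 in the other 86. Leaving the limit-rich arrays out did not turn these genes into followers: r in the 86 others was 0.15 for Atp5l, 0.12 for Ndufs1, 0.19 for Ndufa3, -0.12 for Atp5mpl and -0.17 for Ndufs4. Ndufv3, an accessory subunit of the flavoprotein module, had r = 0.37 in the 86 other arrays and -0.013 in the 18.

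For Ndufb2, the gene with 2 kept probes, r between the probes was 0.23 (rho 0.37). The first probe had an SD of 0.34 log2 and r = 0.90 with the structural mean, the second 0.18 log2 and r = 0.42. The mean of both, used above, had an SD of 0.21 log2 and r = 0.91 with the other structural genes.

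As means over their genes, complexes III and IV had the lowest r of any pair of complexes (0.90). Gene by gene, their mean r of 0.633 was the highest between complexes. However, the 6 kept genes of r under 0.3 all lie in complexes I and V and enter only the other means. Without those 6, III with IV stayed at 0.633, while I with III had 0.610 and I with V 0.641. I with IV had 0.643, III with V 0.659 and IV with V 0.678, so III with IV was no longer the highest. In the limit-rich arrays r of the means was 0.94 for III with IV, and the lowest was 0.91 for I with IV. Genes of complexes I and V were compared by their r with complex III and with complex IV, and for every gene either must be the higher. The counts that follow therefore show no leaning by themselves. For some genes the difference was smaller than its error, as for Ndufv3 (-0.0046 ± 0.046, jackknife SE). Of the 29 complex I genes, 12 had the higher r with complex III and 17 with complex IV. Of the 16 complex V genes, 9 had the higher r with complex III and 7 with complex IV. The genes named next were picked for the size of the difference after their values were seen. Ndufb5 had r = 0.60 with complex III and 0.31 with complex IV (difference 0.29 ± 0.057, jackknife SE). Ndufab1, the mitochondrial acyl carrier protein, had 0.60 and 0.38 (difference 0.22 ± 0.049), and Ndufb9 had 0.93 and 0.77 (0.17 ± 0.040).

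On the other side stood small accessory subunits of complex I. Ndufa2, of the matrix arm, had r = 0.45 with complex III and 0.69 with complex IV (difference -0.24 ± 0.054). Ndufa11, of the membrane arm, had 0.63 and 0.86 (-0.23 ± 0.049), and Ndufa1 had 0.70 and 0.87 (-0.17 ± 0.043). In complex V, Atp5e had 0.49 and 0.65 (-0.16 ± 0.043). All 7 differences kept their sign in the 86 other arrays and in the 18 limit-rich ones. The mean of complex III minus that of complex IV had r = 0.45 with Cpt2 (rho 0.43), r = 0.46 with Tfam (rho 0.38) and r = -0.52 with the mean of the cytosolic ribosomal proteins (rho -0.62).

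To test members against genes that the naming rule does not use, every kept probe was regressed on 8 single genes with limma, with adjustment over all 20632 other probes. Those genes are Cycs (cytochrome c), Sdhb (complex II), Cpt2 (the carnitine palmitoyltransferase of the inner membrane), Nnt (the proton-driven transhydrogenase, deleted in part in C57BL/6J), Ppargc1a (the coactivator PGC-1alpha), Ckm (muscle creatine kinase), and, added later, Tfam (the mitochondrial DNA packaging factor) and Esrra (oestrogen-related receptor alpha). Members were called with Cycs, Sdhb and Cpt2 far more often than all probes were, and with few exceptions in the positive direction. The same held for Tfam and Esrra, but these were added after the data were examined. Among 9 listed regulators they had the highest r with the structural mean (0.68 and 0.56). Their counts are therefore descriptions and not tests.

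With Cycs, 68 of 79 member probes passed in the positive direction and 0 in the negative, while 23.6% of all probes passed in the positive and 21.3% in the negative direction. By complex, 24 of 30 probes passed in complex I, 7 of 7 in III, 11 of 11 in IV and 14 of 16 in V. The probe with the highest r was Ndufv2, a flavoprotein-module core subunit, which rose by 0.30 ± 0.016 log2 (SE) for each SD of Cycs (limma adjusted p = 3.63e-30). Its r was 0.88 and rho 0.88 (permutation p of 1e-05 for both, the smallest that 100000 permutations can give, or 5.52e-05 and 7.07e-05 after Benjamini-Hochberg adjustment over all probes), and r was 0.86 without the 2 mice farthest out in Cycs.

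With Sdhb, 65 of 79 member probes passed in the positive direction and 0 in the negative (22.2% and 17.7% of all probes). Uqcr11 had the highest r, 0.82, with rho 0.79 and 0.24 ± 0.017 log2 for each SD of Sdhb (limma adjusted p = 3.03e-22). Without the 2 mice farthest out in Sdhb, r was 0.80.

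With Cpt2, 59 of 79 member probes passed in the positive direction and 1 in the negative (27.4% and 22.6% of all probes). Ndufab1 had r = 0.87 and rho 0.79, and rose by 0.39 ± 0.022 log2 for each SD of Cpt2 (limma adjusted p = 8.72e-31; r = 0.83 without mice 26 and 120). Ndufaf1, an early assembly factor of complex I, followed with r = 0.83 and rho 0.74 (limma adjusted p = 2.36e-25). The negative probe was Cox7a2l, with r = -0.37 but rho = -0.14, which its permutation test did not call (adjusted p = 0.237), and r was -0.19 without mice 26 and 120, the lowest for Cpt2.

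With Tfam, 67 of 79 member probes passed in the positive direction and 0 in the negative (25.4% and 22.5% of all probes). Ndufb11, a membrane-arm subunit of complex I, had r = 0.88 and rho 0.88, and rose by 0.28 ± 0.015 log2 for each SD of Tfam (limma adjusted p = 1.24e-30; r = 0.87 without the 2 farthest mice). With Esrra, 62 passed in the positive direction and 0 in the negative (12.1% and 11.2%). Ndufs7, a core iron-sulphur subunit, had the highest r with Esrra, 0.61, and rho 0.51 (limma adjusted p = 1.49e-08; r = 0.54 without mice 138 and 26). At an unadjusted limma p under 0.05, the members in the negative direction were still 0 with Cycs, Sdhb, Tfam, Esrra and Ckm, while the permutation test of rho called Ndufs4 with Cycs (rho -0.26) and with Tfam (rho -0.30).

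Complex III followed some of these genes more closely than complex IV did. With Tfam, r was 0.80 for the complex III mean and 0.55 for the complex IV mean (difference 0.249 ± 0.052, jackknife SE, 95% interval 0.15 to 0.35). With Cpt2, r was 0.61 and 0.38 (difference 0.232 ± 0.048, interval 0.14 to 0.32). With Cycs, r was 0.83 and 0.68 (difference 0.142 ± 0.042, interval 0.060 to 0.22). With Nnt, r was 0.31 and 0.18 (difference 0.129 ± 0.043, interval 0.045 to 0.21). Sdhb gave 0.76 and 0.81, a difference of -0.042 ± 0.030 whose interval (-0.10 to 0.017) includes 0. The differences with Esrra (0.027 ± 0.043), Ckm (0.0019 ± 0.025) and Ppargc1a (-0.045 ± 0.049) also had intervals that include 0.

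With Nnt, 33 of 79 member probes passed in the positive direction and 2 in the negative (18% and 16.8% of all probes). Without mice 26 and 120, the lowest for Nnt, 17 passed, and the permutation test of Spearman's rho called 21 (15.3% of all probes). The 2 negative probes were Cox7a2l (r = -0.38, rho -0.29, limma adjusted p = 0.000441) and Ndufaf2, whose mice fall into separate clusters described below. The highest positive r were those of Ndufaf1 (0.59, rho 0.48) and Ndufab1 (0.58, rho 0.40), the same members that led with Cpt2.

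With Ppargc1a, limma called 0 of 79 members in the positive direction and 4 in the negative, while 7.39% of all probes passed in the positive and 5.44% in the negative direction. At an unadjusted p under 0.05, 1 member was positive and 8 were negative. Of all 20632 probes, 2814 were positive and 2235 negative at that cut. At 4 of 79 the members are near the background. The 4 were Ndufaf5, an assembly factor that modifies Ndufs7 (r = -0.34, rho -0.40, limma adjusted p = 0.00721), Ndufab1, the first Ndufb2 probe and Uqcrfs1. By the permutation test of rho, 1 member passed in the positive direction, Ndufa5 of complex I (rho 0.26), against 8.61% of all probes, and 2 in the negative, against 5.58%.

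With Ckm, 39 of 79 member probes passed in the positive direction and 0 in the negative (1.69% and 0.591% of all probes). The Ckm values run from -0.35 to 3.48 log2, with the highest in mouse 44, the mouse that is also highest for the structural mean. By the permutation test of Pearson's r, 28 members passed in the positive direction, as did 185 of all 20632 probes. By that of rho 61 members passed, where 28.6% of all probes also passed. Without mice 44 and 23, the farthest out in Ckm, 48 members passed in the positive direction and 1 in the negative, and without the 5 mice of the highest muscle marker mean 48 and 2 did. The share of all probes without these mice is not given here, so these counts cannot be set against 1.69%. The high values of Cox8b, Cox7a1 and Cox6a2 are described with the tissue isoforms.

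**Figure D4:**
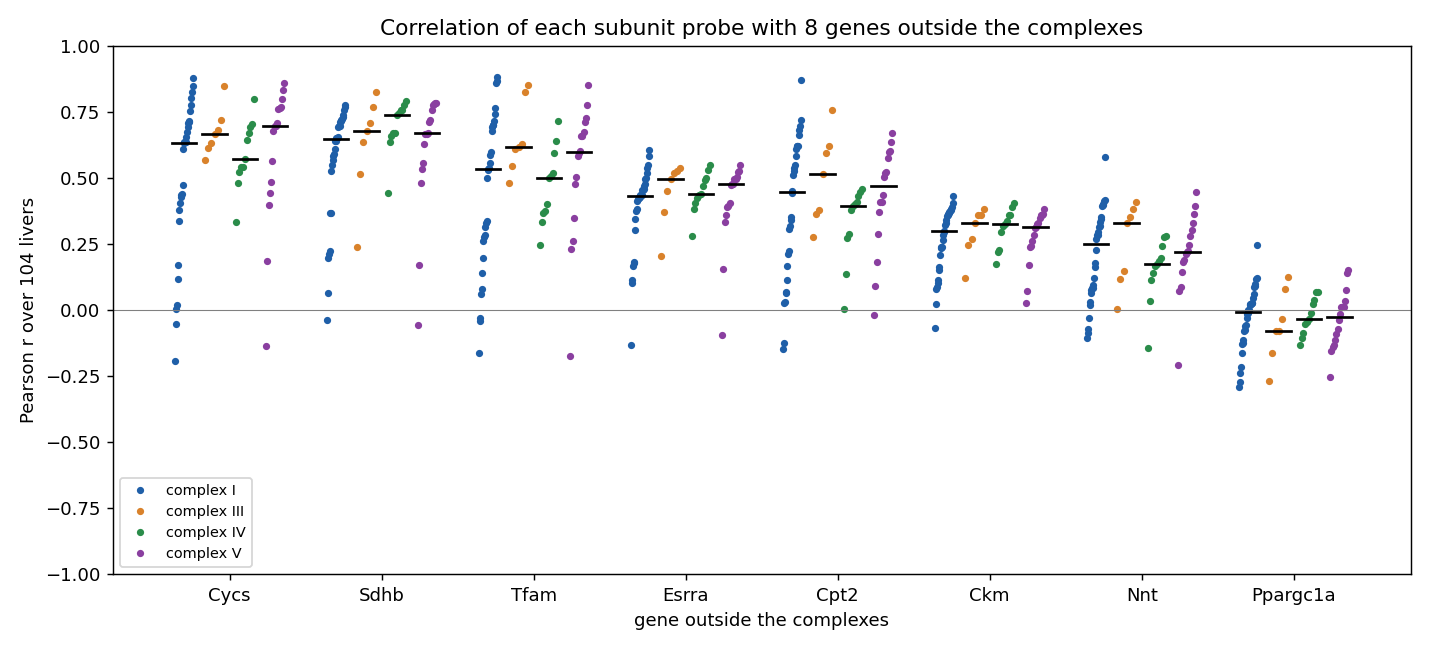
Pearson's r over 104 livers of each subunit probe with 8 genes outside the naming rule, by complex, with the median as a black bar. Most probes are positive for Cycs, Sdhb, Tfam, Esrra and Cpt2, and they are spread around 0 for Ppargc1a.

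Other genes of the same pathways were read from fixed lists of carriers, complex II, complex IV assembly, the tricarboxylic acid cycle, inner membrane carriers and regulators. Of their probes, 32 of 42 passed with Cycs in the positive direction and 1 in the negative, and 32 of 43 and 2 passed with Cpt2. The counts were 31 and 2 of 42 with Tfam, 25 and 2 of 42 with Sdhb, 21 and 1 of 42 with Esrra, and 23 and 3 of 43 with Nnt. Of all probes, 23.6% passed in the positive direction with Cycs, 27.4% with Cpt2, 25.4% with Tfam, 22.2% with Sdhb, 12.1% with Esrra and 18% with Nnt. In the negative direction these shares ran from 11.2% with Esrra to 22.6% with Cpt2. With Ppargc1a 4 listed probes passed in each direction of 42, near the 7.39% positive and 5.44% negative of all probes. With Ckm 5 and 0 of 43 passed (1.69% and 0.591% of all probes).

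The strongest of the listed genes were mostly parts of the chain itself or of the pathways that feed it. With Cycs these were Sdhd (r = 0.84) and Coq9 (0.81), an ubiquinone synthesis factor, and with Sdhb they were Cyc1, the cytochrome of complex III (0.74), and Sdhc (0.73). With Cpt2 they were Etfdh, which passes electrons from fatty acid oxidation to ubiquinone (0.88), and Suclg1 of the tricarboxylic acid cycle (0.77). With Tfam they were Suclg1 (0.89) and Sdhd (0.87), with Esrra Sdhc (0.60) and Sdhb (0.60), and with Nnt Etfdh (0.52) and Lrpprc (0.51), a factor of mitochondrial mRNA stability. With Ppargc1a they were Esrra (0.37) and Dlst (0.35), and with Ckm Mdh2 (0.39) and Etfb (0.35), all with a limma adjusted p under 0.05.

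The most negative listed gene was Slc25a4, the ADP/ATP carrier isoform of heart and muscle, with Cpt2 (r = -0.78, rho -0.73), Tfam (-0.51, rho -0.52), Nnt (-0.51, rho -0.38), Sdhb (-0.39, rho -0.43), Cycs (-0.37, rho -0.35) and Esrra (-0.32, rho -0.25). The other listed genes that passed in the negative direction were Gabpa with Sdhb (-0.24), Sdhaf1 with Cpt2 (-0.22) and with Nnt (-0.25), Coq7 with Nnt (-0.24), Ppargc1a with Tfam (-0.29), and Suclg2 (-0.33), Dhodh (-0.30), Polg (-0.30) and Tfam (-0.29) with Ppargc1a. No listed gene passed in the negative direction with Ckm.

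Against the structural mean itself, and as a description, r was 0.85 for Cyc1, 0.82 for Sdhb, 0.78 for Etfa, an electron transfer flavoprotein subunit, 0.77 for Cox17, the copper chaperone of complex IV, and 0.73 for Suclg1. Slc25a4 had -0.44. The carriers had a median r of 0.72 over 8 genes, complex IV assembly factors 0.39 over 7, and the tricarboxylic acid cycle 0.40 over 9, where citrate synthase (Cs, 0.025) and Ogdh (0.0078) stood near 0. Among 9 regulators the median was -0.014, with Tfam (0.68) and Esrra (0.56) high, and Nrf1 (-0.14), Gabpa (-0.21) and Ppargc1a (-0.046) low.

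Markers of liver cell types moved with the structural mean. Ratios to a pool of livers show no level, so the labelled tissue could not be checked against them. The mean of 6 measured hepatocyte markers of 8 listed ran from -1.37 to 0.50 log2 and had r = 0.75 with the structural mean (rho 0.77), with 6 of 6 positive, from Alb (0.27) to Apoc3 (0.72). The 5 macrophage markers ran from -1.44 to 1.47 and had r = -0.54 (rho -0.61), with 5 of 5 negative. The 4 measured stellate cell markers, a list added later, ran from -2.60 to 2.31 and had r = -0.61 (rho -0.65), with 4 of 4 negative. White fat markers (3 of 5 measured) had r = 0.62, skeletal muscle markers 0.34 (12 of 12 positive) and pancreatic acinar markers 0.13. The 3 brown fat markers had r = -0.38 as a mean but were split, with 1 positive (Ucp1, 0.43) and 2 negative (Prdm16 the lowest, -0.60). The part of cell make-up in the common order of the mice was not tested.

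The assembly factors of complex I, which are not part of the finished enzyme, followed the subunits less closely than most subunits did. Against the structural mean, r was 0.75 for Ndufaf6, 0.69 for Ndufaf1, 0.66 for Ndufaf8, 0.58 for Ndufaf3, 0.54 for Ndufaf5 and 0.34 for Ndufaf7, a methyltransferase. The median over structural genes was 0.78 in complex I. Ndufaf1 ran from -1.03 through 0.06 to 0.53 log2, with the lowest value in mouse 120. Ndufaf6 and Ndufaf7 were both highest in mouse 156, at 0.99 and 0.82 log2.

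Ndufaf2, a late-acting assembly factor related to the subunit Ndufa12, had the widest range of all members, 12.4-fold. Its values fell into separate clusters. In 31 mice they ran from -3.45 to -1.37 with a median of -1.94 log2, and in 73 mice from -0.33 to 1.51 with a median of 0.34. No mouse lay in the gap of 1.04 log2 between them, which ranks 2 among the largest such gaps of 12315 genes, whose median gap is 0.050. Of the 31 low mice, 2 were on limit-rich arrays.

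Since the mice are clustered, no pooled r or rho is printed for Ndufaf2, and the division was set after the values were seen. Within the clusters its r with the structural mean was positive on both sides, 0.42 (rho 0.58) in the 31 mice and 0.55 (rho 0.58) in the 73. Calls over all mice mix the step between the clusters with the spread inside them and are given as counts. On that footing, limma on Ndufaf2 called 0 of the other 78 member probes, with 8 of 20632 probes (0.0388%) positive and 0 (0%) negative. At an unadjusted limma p under 0.05 there were 64 of the 78, all positive. Of all 20632 probes, 1571 were positive and 1317 negative at that cut. By the permutation test of rho, 62 members passed in the positive direction, against 7.96% of all probes. Of the 8 probes limma called, 5 have a chromosome in the annotation, and 4 of those 5 lie on chromosome 13, like Ndufaf2, as do 3.77% of probes with a chromosome.

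These 4 were Arsb, Fancc, Mtrex and 1810034E14Rik, and Copb1 on chromosome 7 was the fifth. Within the low and the high cluster, r with Ndufaf2 was 0.083 and 0.0088 for Arsb, 0.095 and 0.33 for Fancc, 0.12 and 0.17 for Mtrex, -0.13 and 0.44 for 1810034E14Rik, and 0.19 and 0.37 for Copb1. Nnt is also on chromosome 13. In the reverse fit, on Nnt, Ndufaf2 passed in the negative direction over all mice (limma adjusted p = 0.0385). Within the low and the high cluster, however, r between Nnt and Ndufaf2 was 0.42 and 0.026.

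Atp5mpl, the widest structural subunit, ran from -3.75 through -0.08 to 1.66 log2. It was more than 2-fold below the pool in 29 mice, within 2-fold in 65 and more than 2-fold above in 10. Its largest gap, 0.36 log2, had 26 mice below and 78 above. That gap ranked 41 among 12315 genes, whose median gap is 0.050, and was narrower than the 1.04 log2 of Ndufaf2. Atp5mpl was not split into clusters here, so its r and rho are over all mice and can mix a step with the spread. It did not follow the rest of complex V (r = -0.073), and limma called 0 of the other 78 member probes with it, with 2 positive and 3 negative at an unadjusted p under 0.05 and 0 by the permutation tests. At that unadjusted cut, 1295 of all 20632 probes were positive and 934 negative.

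Instead, 25 probes passed with Atp5mpl, 6 positive (0.0291% of all probes) and 19 negative (0.0921%). Of the 15 with an annotated chromosome, 8 lie on chromosome 12, where Atp5mpl is, as do 3.31% of probes with a chromosome. Klc1, a kinesin light chain gene with 3 protein-coding genes between it and Atp5mpl, had r = 0.85 and rho 0.81 (limma adjusted p = 1.50e-25, r = 0.85 without mice 156 and 60). Opposite to it were 5033406O09Rik (r = -0.72, rho -0.79), Setd3 (-0.66, rho -0.66) and Cpsf2 (-0.58, rho -0.58), all on chromosome 12 with limma adjusted p of 2.49e-07 or less. Coa8, a complex IV assembly gene with 4 protein-coding genes between it and Atp5mpl, had r = -0.47 (rho -0.54, limma adjusted p = 0.000952). For Klc1, r was 0.84 in the 86 other arrays and 0.90 in the 18 limit-rich ones.

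**Figure D5:**
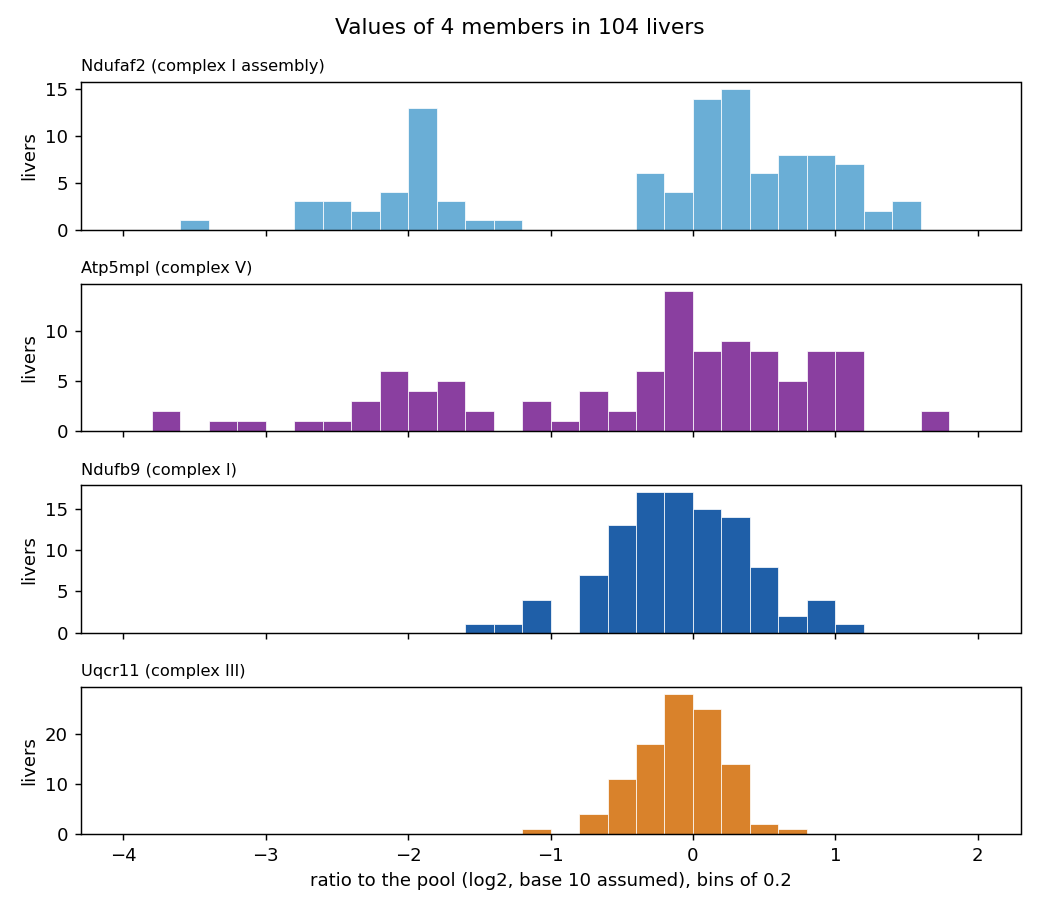
Histograms of the log2 ratio to the pool over 104 livers for Ndufaf2, Atp5mpl, Ndufb9 and Uqcr11, in bins of 0.2. Ndufaf2 has 31 mice below and 73 mice above an empty gap, Atp5mpl has a long low tail, and Ndufb9 and Uqcr11 have a single hump.

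The muscle-type isoforms of complex IV stayed within 2-fold of the pool in most livers and stood far above it in a few. Mouse 44 was the highest for Cox8b (5.36 log2), Cox6a2 (4.55) and Cox7a1 (3.05), the isoforms of heart and skeletal muscle. The medians over all mice were -0.17, -0.09 and -0.13 log2. Mouse 44 also had the highest mean of 12 skeletal muscle markers (4.16 log2), followed by mice 23 (2.61) and 36 (1.80), which were also high for Cox8b at 3.15 and 2.41.

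Cox8b had r = 0.89 with Ckm but rho of 0.15, and r was 0.51 without mice 44 and 23. Cox7a1 had the highest r of the 5 isoforms with the structural mean: it was 0.66 over all mice (rho 0.77) and 0.72 in the 99 mice left without the 5 of the highest muscle mean. For Cox6a2 the values were 0.12 and -0.15, and for Cox8b 0.35 and 0.35. Mice 44, 43 and 18 were among the 5 highest in both the muscle marker mean and the structural mean, at ranks 1, 3 and 4 of the structural mean, which had r = 0.34 with muscle markers over all mice and 0.21 without those 5. Cox7b2 and Cox8c, isoforms of testis, had most of their extremes in limit-rich arrays: Cox7b2 was highest in mouse 62 (5.95 log2), and Cox8c was lowest in mouse 101 (-5.86) and highest in mouse 64 (3.83). The lowest Cox7b2 value, -3.07 in mouse 122, came from another array. Cox7b2 varied more broadly than the other isoforms, with a 4.82-fold range, and was more than 2-fold above the pool in 11 mice and below it in 5.

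Cox7a2l, which links complexes III and IV into supercomplexes and is known to carry a short form in C57BL/6J, ran from -0.48 through -0.0061 to 1.01 log2, with the highest value in mouse 26. Its r with the structural mean was 0.050 (rho 0.087), 0.10 with complex III and 0.094 with complex IV. The probe of the pseudogene Atp5k-ps1 had r = 0.99 with that of Atp5k, the e subunit of ATP synthase, and Ndufs5-ps had r = 0.86 with the structural mean. How alike the copies are in sequence was not checked, so signal on the pseudogene probes cannot be assigned to the gene or to the pseudogene.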

How the data were processed

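Values are log10 ratios as deposited by the authors, 1 per probe and array; the base was inferred from the limits of 2 and -2, and no source used here gives the image analysis, the normalization or the dye orientation. Values at the limits (26086, or 1.07%) were treated as not measured, 1.69% were missing, and 20633 probes with a value on at least 90% of 104 arrays were kept. Symbols came from the platform annotation and were updated through RefSeq GRCm38.p6. Probes of a gene were averaged.

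Each kept probe was regressed on each of 8 genes outside the naming rule and on Ndufaf2 and Atp5mpl (R 4.3.3, limma 3.58.1, Benjamini-Hochberg adjusted p under 0.05), with Pearson and Spearman correlations from 100000 two-sided permutations beside it (python 3.11.15, numpy 2.4.6, scipy 1.17.1, pandas 2.3.3, matplotlib 3.10.9). On simulated data over 20633 probes with Cycs, 96% of probes with a true r of 0.5 and 26% of those with 0.3 were recovered, and 2.4% of calls were false. The simulated probes were independent of each other, with 100 linked to Cycs at each true r. Real probes are correlated and far more were called, so these rates need not hold for them. Jackknife errors are over mice. Genes were named by a fixed rule (per complex, the 2 widest and narrowest ranges and the 2 highest and lowest r, all assembly factors and isoforms); others named for an extreme value were chosen after their values were seen. The members and gene lists were chosen with earlier results of these data known. Tfam, Esrra, Ndufaf2, Atp5mpl and the stellate list were added after the data were examined.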

Additional observations from a re-analysis of the deposited data

How the results depend on the processing

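Of 212 recomputed values, 152 stayed within their limits (1.5 times for a count, 1 error for a mean r), 60 moved and 0 changed sign. In the 18 limit-rich arrays alone, the member probes that passed in the positive direction numbered 28 with Cycs, 38 with Sdhb, 26 with Cpt2, 42 with Tfam, 0 with Nnt and 0 with Esrra, from far fewer samples. With Nnt, 17 passed without mice 26 and 120, and 21 by Spearman's rho. By rho, 61 passed with Ckm and 1 with Ppargc1a. Of all probes, those called with Ndufaf2 in either direction numbered 16 with the limit-rich arrays as a batch term, 3 in the other arrays, 0 in the limit-rich arrays, 2872 by rho and 0 by Pearson's r with permutation, and for Atp5mpl 1 in the limit-rich arrays and 404 by rho. Mean r within complexes I, III, IV and V was 0.394, 0.694, 0.662 and 0.485 in the limit-rich arrays and 0.30, 0.347, 0.621 and 0.364 with the first principal component removed. It was 0.512 in complex I with probes measured on every array, 0.459 in complex III with probes measured on at least 50% of arrays, 0.383 in complex IV with isoforms included, 0.492 in complex V without the 3 most extreme mice, and 0.598 and 0.669 in complexes I and V without the 6 genes of low r. Between complexes it was 0.518 in the limit-rich arrays, 0.514 with the 50% minimum, 0.461 with isoforms and assembly factors, 0.390 without the first principal component and 0.643 without the 6 genes. The same-complex minus different-complex difference was -0.070 in the limit-rich arrays, -0.031 with probes measured on every array, -0.039 with the 50% minimum, -0.022 with isoforms, -0.044 by rho and -0.016 without the 6 genes. Of the structural genes, 7 had a range above 2-fold in the limit-rich arrays and 1 if the values are natural logarithms, against 26 as reported. Except where the setting itself leaves fewer samples or other genes, the cause was not tested. No paired analysis was possible because the mice form 1 group.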
